A study of Mus musculus with 3 samples.

Results

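The collagen genes of the mouse liver were read out cell by cell. They were the rows of the count matrix whose symbol was Col, a number, the letter a and a number and nothing more, such as Col1a1, and 44 of the 55357 rows met this rule. Of the 44 genes, 39 had at least 1 unique molecular identifier (UMI, the tag that marks 1 captured RNA molecule) in 1 of the 3 libraries. Their 24904 UMIs made up 0.0210% of the 118660227 UMIs in the matrices. Col18a1 alone gave 16995 of them, which was 68.2%, and the other members together gave 7909.

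The study compared liver cells of male C57BL/6J mice in 3 conditions, with 1 library for each condition and the cells of 2 mice pooled in each library. All mice were wild-type and were 8 weeks old at the start. The control mice received no such treatment, the high-fat diet mice took 60% of their calories from fat for 4 months, and the CCl4 mice had chow for 3 months and then injections of 0.1 mL of 10% carbon tetrachloride into the abdomen, 2 per week for 4 weeks. The liver was perfused with collagenase, hepatocytes and non-parenchymal cells were separated and then mixed 1:1 by number, and libraries were made with the 10x Chromium 3′ kit. The share of a cell type in a library was therefore set by the isolation and the mixing. No library was repeated, so no difference between conditions could be tested, and every interval below covers counting error only.

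Collagens are proteins of 3 chains wound into a triple helix. Fibrillar collagens such as types I, III and V form the fibers of connective tissue, and in the liver they are known as products of portal fibroblasts and activated stellate cells. Type IV forms the sheet-like network of basement membranes, type VI forms beaded filaments beside fibers and cells, the fibril-associated types sit on the surface of fibers, and the multiplexins XV and XVIII carry sugar chains in or near basement membranes. A few types span the cell membrane. The chains are hydroxylated and folded in the endoplasmic reticulum, then trimmed and crosslinked outside the cell. Scarring after repeated toxic injury is known for the build-up of fibrillar collagen.

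The genes that led the fibroblast-like cells, and the pairs of type IV genes that start beside each other, are shown first by sequence, since both recur in the results. The 250 bases before the RefSeq start of Col1a2 (chr6:4505368-4505617, + strand, GRCm38.p6) and of Col3a1 (chr1:45311288-45311537, + strand) are printed 5′ to 3′, with matches to the motifs GGGCGG and CCAAT, and to the motif TATAAA, in capitals.
Col1a2: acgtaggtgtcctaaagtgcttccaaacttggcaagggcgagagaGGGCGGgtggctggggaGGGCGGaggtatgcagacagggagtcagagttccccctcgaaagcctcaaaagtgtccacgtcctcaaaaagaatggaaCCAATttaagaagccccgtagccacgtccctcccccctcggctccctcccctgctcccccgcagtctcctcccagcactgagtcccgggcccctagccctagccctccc
Col3a1: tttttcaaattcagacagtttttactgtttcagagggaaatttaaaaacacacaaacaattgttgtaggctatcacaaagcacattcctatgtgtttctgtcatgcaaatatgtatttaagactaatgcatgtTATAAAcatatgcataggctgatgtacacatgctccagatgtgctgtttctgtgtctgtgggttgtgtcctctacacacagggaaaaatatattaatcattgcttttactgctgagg
The Col1a2 window held GGGCGG at 205 and 188 bases and CCAAT at 109 bases before the start, and the Col3a1 window held TATAAA at 117 bases before it. Over 32851 windows of 250 bases before RefSeq starts, read on both strands, CCAAT (or ATTGG) was present in 33.8%, TATAAA (or TTTATA) in 12.4% and GGGCGG (or CCGCCC) in 32.7%. Of the 38 windows found for 35 of the members, 13 held CCAAT, 5 TATAAA and 22 GGGCGG. A match is a description of the letters and not of a binding site. The same 3 words were searched in the stretches between type IV genes that point away from each other. Col4a4 (- strand) and Col4a3 (+ strand) were 71 bases apart on chromosome 1 (chr1:82586850-82586920). Col4a1 (- strand) and Col4a2 (+ strand) overlapped by 22 bases on chromosome 8 (chr8:11312805-11312826). Both stretches are printed on the + strand of GRCm38.p6, and the capitals again mark a match.
Col4a4/Col4a3: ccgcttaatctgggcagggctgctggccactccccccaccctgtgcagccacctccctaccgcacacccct
Col4a1/Col4a2: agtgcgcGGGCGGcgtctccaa
Col4a6 and Col4a5 on chromosome X were arranged in the same way with 1308 bases between them. The build and annotation are GENCODE M21 on GRCm38. The count files held no coordinates, so positions were matched by gene identifier.

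The 3 libraries, in the order control, high-fat diet and CCl4 that is kept below, held 11245, 12984 and 12761 barcodes with 49613255, 34985786 and 34061186 UMIs, and 2 to 40 barcodes per library were left out. Cells were named from markers that included no collagen gene, and a name ends in "-like" for that reason. Fibroblast-like cells numbered 17, 46 and 4 in the 3 libraries, smooth muscle cell-like cells 53, 10 and 18, endothelial cell-like cells 144, 317 and 162, cholangiocyte-like cells 115, 165 and 215, hepatocyte-like cells 4961, 6387 and 7041, and T cell-like cells 1074, 2085 and 1951. In the fibroblast-like cells 19, 19 and 16 of the 20 fibroblast markers were in at least 10% of cells, and the proteoglycan Dcn was in 100% of the 17 control cells. The barcodes that any 2 libraries shared numbered 36 to 52, at most 0.436% of a library. RNA of hepatocytes was present in all classes and differed between libraries. In fibroblast-like cells the 10 hepatocyte markers summed to 13715, 70719 and 99630 counts per 1000000 UMIs of the class (CPM), in endothelial cell-like cells to 17419, 81964 and 114146 CPM, and in T cell-like cells to 23063, 97704 and 119042 CPM. A higher share of such RNA lowers the CPM of all other genes, and its part in the differences between libraries below was not tested.

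The collagen level was highest in the fibroblast-like cells of control and high-fat diet, and in CCl4 these cells and the mesothelial cell-like cells lay side by side. All members together had 14078 CPM in fibroblast-like cells in control (931 UMIs, 95% Poisson interval 13188 to 15012), 4199 CPM in high-fat diet (590 UMIs, 3867 to 4552) and 5494 CPM in CCl4 (52 UMIs, 4103 to 7205). Mesothelial cell-like cells, which line the liver surface, had 4668, 2166 and 5579 CPM. In CCl4 1 of their cells held 119 of the 193 member UMIs. Without the highest cell of each class, they had 2600 CPM there, against 4751 CPM in fibroblast-like cells. Smooth muscle cell-like cells had 2057, 1572 and 776 CPM, endothelial cell-like cells 731, 487 and 421 CPM, cholangiocyte-like cells 367, 321 and 315 CPM, and hepatocyte-like cells 176, 197 and 291 CPM. T cell-like cells, the background class, had 45.5, 130 and 118 CPM, of which Col18a1 made up 63.4%, 87.5% and 89.6%. Without Col18a1 the background was 16.7, 16.3 and 12.3 CPM, and the hepatocyte-like cells were at 40.9, 19.6 and 28.3 CPM. The intervals of the fibroblast-like, smooth muscle cell-like and endothelial cell-like cells did not overlap each other in control. The 17 fibroblast-like cells of control were 0.152% of its cells. Fibroblast-like cells held 23.2%, 23.2% and 3.70% of the collagen UMIs outside Col18a1 of the 3 libraries, against 2.88%, 24.6% and 13.2% in mesothelial cell-like and 28.2%, 13.5% and 41.3% in hepatocyte-like cells. Every fibroblast-like cell had a collagen UMI in all 3 libraries, with a median of 52, 9 and 12.5 per cell, against 10.3%, 26.1% and 21.8% of T cell-like cells.

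**Figure D1:**
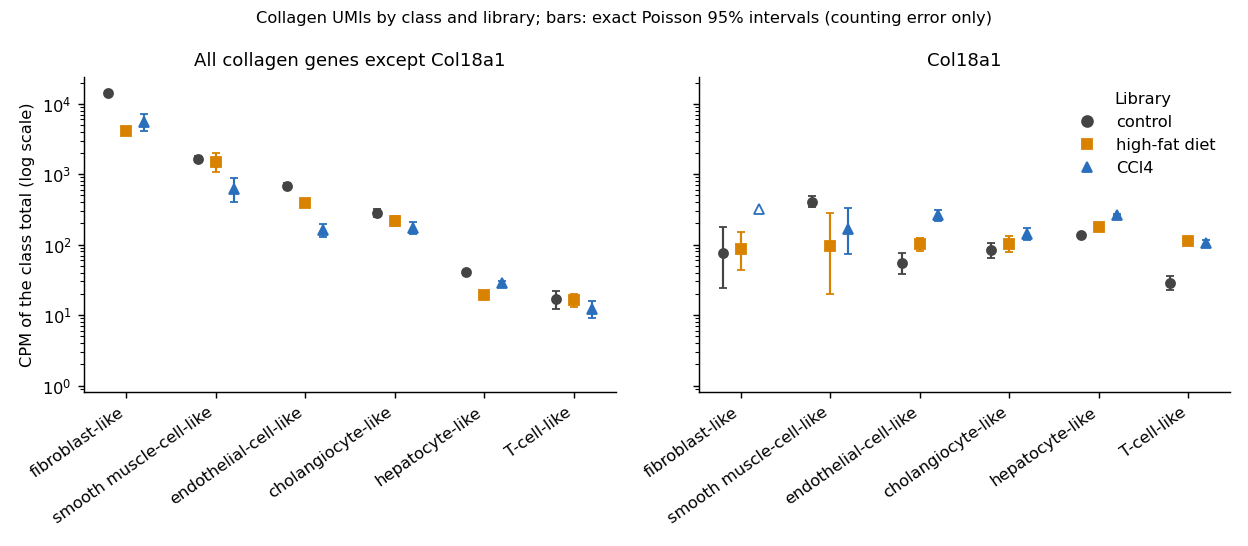
CPM of all collagen genes except Col18a1 (left) and of Col18a1 (right), on a log scale, by class and library; bars are exact Poisson 95% intervals for counting error, and an open symbol marks 0 UMIs drawn at the value of 3 UMIs. Outside Col18a1, fibroblast-like cells lie highest of the 6 classes drawn in each library (14003, 4113 and 5494 CPM), while Col18a1 of high-fat diet is at 114 CPM in T cell-like and 102 CPM in endothelial cell-like cells.

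The 11 fibrillar genes summed to 10041, 2519 and 2641 CPM in the fibroblast-like cells. In mesothelial cell-like cells they summed to 3204, 1335 and 4336 CPM, which was lower in control and high-fat diet and higher in CCl4. The CCl4 order rests on few cells, since 1 of the 11 mesothelial cell-like cells held 119 of their 193 member UMIs. In fibroblast-like cells Col3a1, the type III chain, had 278, 176 and 12 UMIs, which were 4204, 1253 and 1268 CPM. It was found in 17 of 17, 35 of 46 and 3 of 4 cells. Col1a2 had 174, 81 and 4 UMIs (2631, 576 and 423 CPM) and Col1a1 had 171, 67 and 4 UMIs (2586, 477 and 423 CPM). These are the chains of type I collagen, and their levels lay close to each other and below Col3a1 in each library. T cell-like cells had at most 2 UMIs of each of the 3 genes in any library, and Col3a1 in control was at least 4033-fold higher than the 3 UMIs that their count of 0 allows. The type V chains were lower. Col5a2 had 20, 8 and 3 UMIs (302, 56.9 and 317 CPM) and Col5a1 had 12, 11 and 0 UMIs (181, 78.3 and 0 CPM, where 0 of 9465 UMIs allows up to 317 CPM). The control library stood highest for the type I and III chains, and the CCl4 values rest on 4 cells.

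Col1a1 and Col1a2 were counted in a ratio near 1 in these cells, 171 against 174 in control and 67 against 81 in high-fat diet, or 0.934 over all libraries (95% interval 0.781 to 1.12). In collagen I itself the α1 chain is present in more copies than α2. Col3a1 stood at 1.63 times Col1a1 in control (1.34 to 1.98) and 2.63 times in high-fat diet (1.97 to 3.53), and these intervals overlapped only at their ends. Reads at the 3′ end count molecules, so these ratios were not scaled by gene length. Smooth muscle cell-like cells of control held the same 3 genes at lower levels: 259 CPM of Col3a1 (71 UMIs), 179 CPM of Col1a2 (49 UMIs) and 106 CPM of Col1a1 (29 UMIs), with Col1a1 at 0.592 of Col1a2 (0.361 to 0.956).

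Genes of the beaded-filament and fibril-associated types were also read in fibroblast-like cells. Col14a1, a fibril-associated collagen, had 75, 88 and 13 UMIs (1134, 626 and 1373 CPM). In the 4 cells of CCl4 its 13 UMIs and the 12 of Col3a1 were the highest, and their intervals overlapped (731 to 2349 and 655 to 2215 CPM). Of the type VI chains, Col6a3 had 54, 23 and 2 UMIs (817, 164 and 211 CPM), Col6a1 had 40, 31 and 2 UMIs (605, 221 and 211 CPM) and Col6a2 had 27, 15 and 0 UMIs (408, 107 and 0 CPM). Col16a1, also fibril-associated, had 8, 9 and 3 UMIs (121, 64.1 and 317 CPM). Col6a5 was at 106, 56.9 and 211 CPM on 7, 8 and 2 UMIs. Col14a1 differed from the type I and III chains in that control and CCl4 overlapped within their intervals (892 to 1422 and 731 to 2349 CPM).

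Type VI chains were not counted together in all classes. In fibroblast-like cells Col6a3 and Col6a1 had 79 and 73 UMIs over the 3 libraries, a ratio of 1.08 (0.777 to 1.51). In endothelial cell-like cells they had 66 and 3 UMIs, a ratio of 22.0 (7.21 to 109), and in smooth muscle cell-like cells 40 and 3 UMIs, a ratio of 13.3 (4.25 to 67.4). Mesothelial cell-like cells went the other way with 14 and 70 UMIs, a ratio of 0.20 (0.104 to 0.358). The type VI protein holds the α1, α2 and α3 chains together. Type V showed a like split: Col5a1 and Col5a2 had 23 and 31 UMIs in fibroblast-like cells, and 1 and 44 UMIs in endothelial cell-like cells.

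**Figure D2:**
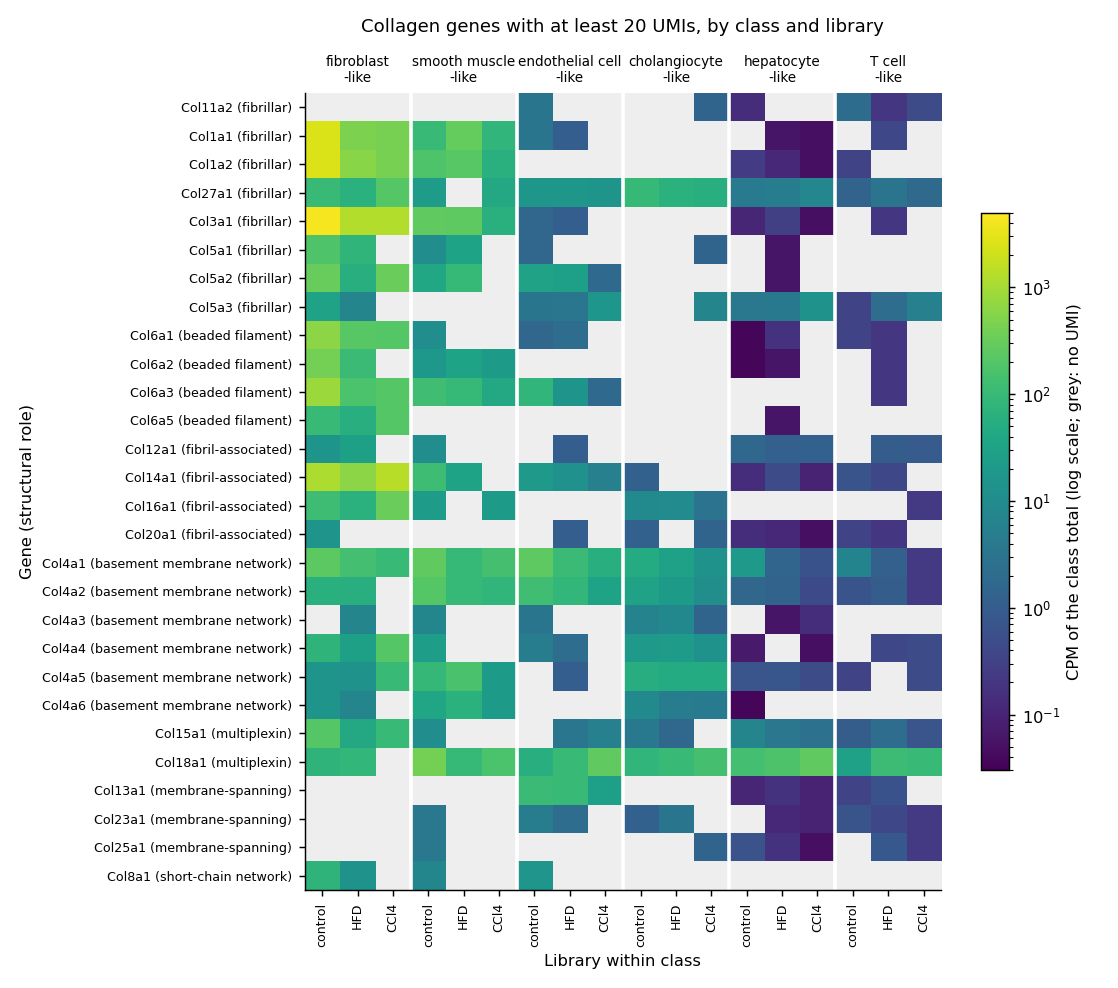
CPM of the 28 collagen genes with at least 20 UMIs (rows, with structural role) in the 6 classes, each with its 3 libraries (columns); color is on a log scale and grey marks no UMI. In control and high-fat diet Col1a1, Col1a2, Col3a1, Col6a1, Col6a2, Col6a3 and Col14a1 are brightest in fibroblast-like cells, while Col11a2 has no UMI there, Col4a1 is bright in several classes and Col18a1 has UMIs in all of them.

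Against T cell-like cells of the same library, 10 of 10 members with at least 20 UMIs in both classes together were at 2-fold or more in the fibroblast-like cells of control, where 34.7% of all genes tested were. In high-fat diet 8 of 9 members passed 2-fold, with a background of 24.5%, and the member that did not was Col18a1. The median log2 ratio of the members in control was 10.14, against 0.47 over all genes tested. The T cell-like class of control held 2878079 UMIs, against 66131 in fibroblast-like cells. Members such as Col1a1 (171 UMIs in fibroblast-like and 0 in T cell-like cells) reached 20 UMIs only through the fibroblast-like cells. For these a fold of 2 or more followed from the filter, so the counts and medians are not a like comparison with all genes. With 4 cells and 9465 UMIs, the CCl4 class was too small for such counts.

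Between libraries, the collagen genes of fibroblast-like cells were lower in high-fat diet than in control. The sum of all members was 0.298 of control (0.269 to 0.331) and that of CCl4 was 0.390 of control (0.289 to 0.516). Of 11 members with at least 20 UMIs in both libraries together, 9 were at 0.5-fold or less and 0 at 2-fold or more in high-fat diet, where 16.5% of all 1835 genes tested were lower and 19.4% higher by that measure. Some members, such as Col15a1 (14 and 6 UMIs), reached the minimum of 20 UMIs mainly through control. This count is therefore not a like comparison with all genes. The median log2 ratio was -1.94 for the members and -0.13 for all genes. Col1a1 stood at 0.184 of control (0.137 to 0.246), Col5a2 at 0.188 (0.0717 to 0.446), Col6a3 at 0.20 (0.117 to 0.332), Col15a1 at 0.202 (0.0635 to 0.559), Col1a2 at 0.219 (0.166 to 0.287), Col6a2 at 0.261 (0.129 to 0.509), Col3a1 at 0.298 (0.245 to 0.361), Col6a1 at 0.365 (0.221 to 0.598) and Col5a1 at 0.431 (0.172 to 1.07). Col14a1 at 0.552 (0.401 to 0.762) and Col4a1 at 0.559 (0.272 to 1.16) did not reach the fold. In CCl4, Col1a1 (0.163, 0.0440 to 0.426), Col1a2 (0.161, 0.0433 to 0.419) and Col3a1 (0.302, 0.154 to 0.535) were below control, while Col14a1 stood at 1.21 (0.616 to 2.20).

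Hepatocyte RNA in these cells was higher in high-fat diet and CCl4, as given above. A ratio to fibroblast markers, in which the class total drops out, is given beside CPM. Per 100 UMIs of the 20 fibroblast markers, members other than Col18a1 had 75.4 UMIs in control (69.2 to 82.2), 35.1 in high-fat diet (31.8 to 38.6) and 35.6 in CCl4 (25.4 to 49.2). The control library was also highest by this ratio, by a smaller margin. The markers themselves stood at 18569, 11728 and 15425 CPM, so the ratio moves with them as well, and the cause of the difference was not tested. The class also differed in its makeup. A sub-cluster led by Dpt, Sfrp1 and Svep1 held 14, 31 and 3 cells with 16318, 4852 and 5826 CPM of all members, and one led by Lhx2, Colec11 and Bmp5 held 3, 15 and 1 cells with 4477, 2699 and 4530 CPM. Both were lower in high-fat diet than in control. The 29 cells with endothelial and fibroblast markers, kept apart from this class, shared leading genes such as Colec11, Bmp5 and Reln with the Lhx2-led cells. Their sum of all members was at 0.957 of control in high-fat diet (0.786 to 1.16). Their median depth in control was 8426 UMIs, against 3488 in fibroblast-like cells. The highest fibroblast-like cell held 12.5%, 9.66% and 38.5% of the class's member UMIs.

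**Figure D3:**
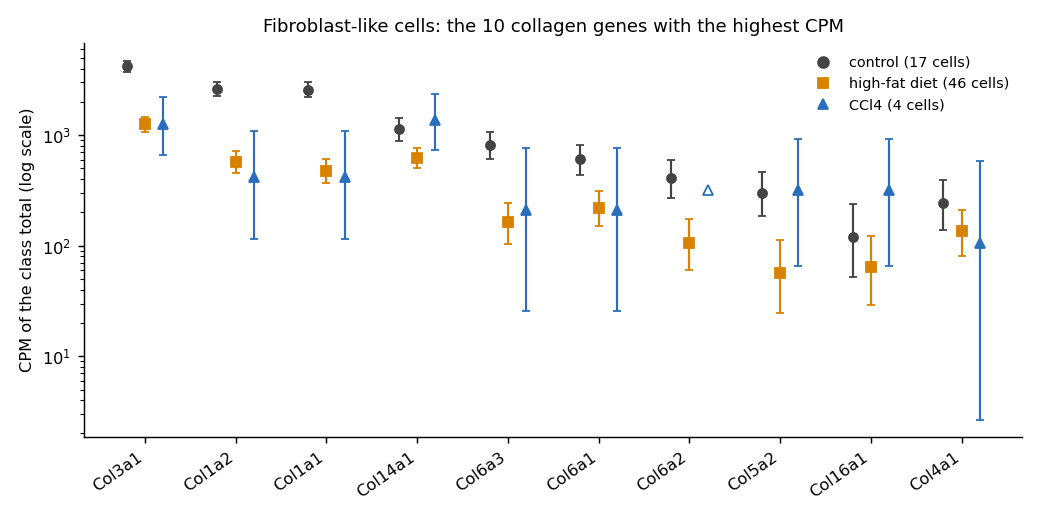
CPM (log scale) of the 10 collagen genes highest in fibroblast-like cells, by library, with exact Poisson 95% intervals; an open symbol marks 0 UMIs drawn at the value of 3 UMIs. For Col3a1, Col1a2, Col1a1 and the type VI genes control lies above high-fat diet, and the CCl4 intervals of 4 cells are wide.

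The genes that process collagen were read from 4 lists. Of the folding and export genes, 3 of 5 tested were at 0.5-fold or less in fibroblast-like cells of high-fat diet against control, and 0 at 2-fold or more, where 16.5% of all genes tested were lower and 19.4% higher, as for the other lists below. Serpinh1, the chaperone of procollagen, had 114, 44 and 8 UMIs (1724, 313 and 845 CPM) and stood at 0.182 of control (0.125 to 0.259). Sparc, a collagen-binding matrix protein, had 182, 104 and 7 UMIs (2752, 740 and 740 CPM) and stood at 0.269 (0.209 to 0.344). Sec24d, a coat protein of export vesicles, stood at 0.166 (0.0536 to 0.442). Of the hydroxylation genes 1 of 3 was lower, P4ha1, a prolyl 4-hydroxylase subunit, with 19 and 2 UMIs. Of the propeptide-removal and crosslinking genes 2 of 4 were lower, the enhancer Pcolce at 0.321 (0.155 to 0.647) and the protease Adamts2 at 0.235 (0.0872 to 0.583), and 1 was higher, Pcolce2, on 4 and 18 UMIs. Of the receptors, 0 of 3 passed either fold. The folding and export list summed to 5126, 1430 and 1902 CPM in these cells and to 300.2, 339 and 272 CPM in T cell-like cells.

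Type IV genes were found in several classes at different ratios of the chains. Col4a1 and Col4a2, the chains found in most basement membranes, had 270 and 208 CPM in smooth muscle cell-like cells of control (74 and 57 UMIs) and 254 and 125 CPM in endothelial cell-like cells of control (160 and 79 UMIs). Fibroblast-like cells of control had 242 and 60.5 CPM (16 and 4 UMIs). In high-fat diet their Col4a1 was at 135 CPM (19 UMIs), against 96.3 CPM in smooth muscle cell-like cells (3 UMIs) and 110 CPM in endothelial cell-like cells. The fibroblast-like interval there (81.4 to 211 CPM) overlapped that of smooth muscle cell-like cells (19.9 to 281 CPM) and held the endothelial value. Cholangiocyte-like cells of control had 48.6 and 30.7 CPM (38 and 24 UMIs). Col4a5, which is carried on the X chromosome, had 91.3 CPM in smooth muscle cell-like cells (25 UMIs) and 53.7 CPM in cholangiocyte-like cells (42 UMIs) of control. Its neighbor Col4a6 had 36.5 CPM (10 UMIs) and 8.95 CPM (7 UMIs) in the same cells. Over the 3 libraries Col4a5 stood at 2.38 times Col4a6 in smooth muscle cell-like cells (1.21 to 4.97) and at 8.15 times in cholangiocyte-like cells (4.57 to 15.8). Col4a4 and Col4a3, which meet over the 71 bases printed above, had 39 and 11 UMIs in cholangiocyte-like cells, a ratio of 3.55 (1.78 to 7.68).

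Smooth muscle cell-like cells of control combined basement membrane and fibrillar genes, at 639 and 618 CPM. Against T cell-like cells 9 of 9 members passed 2-fold, with 17.0% of all genes passing it. Some, such as Col1a1 (29 UMIs in smooth muscle cell-like and 0 in T cell-like cells), reached the UMI minimum for such counts only through the smooth muscle cell-like cells. For these the pass followed from the filter, so the count is not a like comparison with all genes. Col18a1 was the highest member at 409 CPM (112 UMIs, in 41 of 53 cells), which was 14.2 times the T cell-like level (10.6 to 19.1). In high-fat diet and CCl4 it had 3 and 8 UMIs (96.3 and 168 CPM), at 0.847 (0.174 to 2.49) and 1.58 times (0.679 to 3.14) that level. Col6a3 had 128 CPM (35 UMIs) and Col14a1 121 CPM (33 UMIs). Col19a1, a fibril-associated collagen, had 13 of its 18 UMIs here, in 10 of 53 cells, and 2 of the 18 in the other libraries. The high-fat diet and CCl4 classes of 10 and 18 cells had 49 and 37 member UMIs. Their sums stood at 0.764 of control (0.559 to 1.02) and at 0.377 (0.263 to 0.527). In high-fat diet 1 cell held 21 of the 49 UMIs, and without it the sum was 992 CPM instead of 1572. Per 100 UMIs of smooth muscle markers, members other than Col18a1 had 3.32, 4.80 and 2.94 UMIs, and the intervals of the 3 libraries overlapped (3.02 to 3.65, 3.49 to 6.45 and 1.96 to 4.25) between control and each of the others.

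Col13a1, a collagen that spans the cell membrane, had most of its UMIs in endothelial cell-like cells. It had 67, 89 and 14 UMIs there (106, 97.8 and 26.1 CPM), of 209 UMIs over all cells, and at most 3 UMIs in T cell-like cells of any library. A small set of cells with both endothelial and fibroblast markers, kept apart from this class, had Col13a1 at a like level, with 12 and 8 UMIs (108 and 120 CPM) in control and high-fat diet and 0 in the 3 cells of CCl4. Col4a1 had 160, 100 and 30 UMIs (254, 110 and 55.9 CPM) and Col4a2 had 79, 77 and 17 UMIs (125, 84.6 and 31.7 CPM). Col6a3 had 51, 14 and 1 UMIs (80.9, 15.4 and 1.86 CPM), Col5a2 had 19, 24 and 1 UMIs (30.1, 26.4 and 1.86 CPM), Col14a1 had 12, 12 and 3 UMIs (19.0, 13.2 and 5.59 CPM), and the fibrillar gene Col27a1 had 11, 16 and 8 UMIs (17.5, 17.6 and 14.9 CPM). Most of these were lowest in CCl4, and Col27a1 overlapped in all 3 libraries. Against T cell-like cells, 4 of 5 members in control, 5 of 6 in high-fat diet and 3 of 3 in CCl4 passed 2-fold, with 19.6%, 17.4% and 15.9% of all genes passing it. Members such as Col13a1 (67 and 1 UMIs in the 2 classes of control) reached 20 UMIs only through the endothelial cell-like cells. For these the pass followed from the filter.

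Between libraries, high-fat diet had 0 members higher and 2 lower of 8 in endothelial cell-like cells, Col4a1 at 0.433 of control (0.334 to 0.559) and Col6a3 at 0.190 (0.0972 to 0.349), where 11.6% of all genes were higher and 16.4% lower by 2-fold. CCl4 had 5 of 6 members lower, where 35.4% of all genes were lower, with Col4a1 at 0.220 (0.144 to 0.327), Col4a2 at 0.253 (0.140 to 0.431) and Col13a1 at 0.246 (0.127 to 0.441). The 1 member higher in CCl4 was Col18a1, where 13.1% of all genes were higher. Col18a1 had 35, 93 and 140 UMIs (55.5, 102 and 261 CPM) and stood at 4.70 times control in CCl4 (3.23 to 7.02). Col18a1 of T cell-like cells stood at 28.8 CPM in control and 106 CPM in CCl4, and the part of hepatocyte RNA in the endothelial value was not tested. The 15 endothelial markers were also lower, at 10741, 7061 and 2760 CPM. Per 100 UMIs of those markers, members other than Col18a1 had 6.29 (5.69 to 6.94), 5.45 (4.88 to 6.07) and 5.81 UMIs (4.62 to 7.22), and these intervals overlapped.

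The libraries also filled different endothelial sub-clusters. The sub-cluster led by Inhbb held 77, 0 and 0 cells, that led by Cldn5 4, 200 and 8, that led by Cyp26b1 4, 8 and 49, and that led by Adam23 0, 6 and 74, while those led by Rspo3 and Vwf held cells of all libraries (13, 28 and 4, and 46, 25 and 21). A sub-cluster led by Aqp1 held 0, 50 and 6 cells. In it 12 of the 15 endothelial markers were raised, and its leading genes also held Elovl3, Ehhadh and Serpina7. Ehhadh was a leading gene of a hepatocyte-like cluster too. The marker rule alone left this sub-cluster unnamed, and it kept the endothelial name of the cells it was split from. Its 50 high-fat diet cells had 58.6 CPM of members other than Col18a1. Col13a1 had 181 CPM in the Inhbb-led and 143 CPM in the Cldn5-led cells, against 18.3 CPM in the Vwf-led cells. Col6a3 was arranged in the reverse way, with 131 CPM and 50 of its 66 endothelial UMIs in the 92 Vwf-led cells and 3.54 CPM in the Inhbb-led cells. Col4a1 ranged from 138 to 283 CPM in 5 of the 7 sub-clusters, and was at 24.8 CPM in the Adam23-led and 7.57 CPM in the Aqp1-led cells. Col18a1 had 379 CPM in the Adam23-led cells, which held 122 of its 268 endothelial UMIs, and 52.3 to 151 CPM in the others. In the Adam23-led cells 10 of the 15 endothelial markers were raised, against 14 or 15 in all others but the Aqp1-led cells. Their Col18a1 level was near that of the hepatocyte-like cluster of CCl4 with the most Col18a1, given below. The part of hepatocyte RNA in it was not tested. Within the Vwf-led cells, all members other than Col18a1 were at 666, 238 and 190 CPM in the 3 libraries. Col8a1, a short-chain collagen, had 10 endothelial UMIs in control, 9 of them in the Inhbb-led cells, with 6 in 1 cell.

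**Figure D4:**
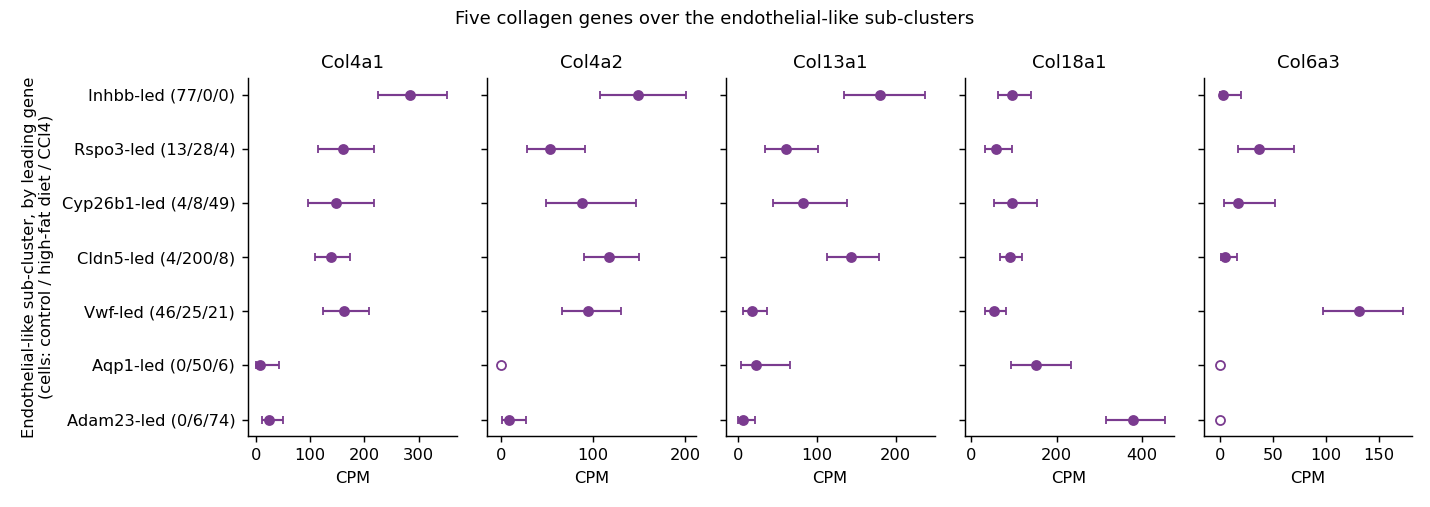
CPM of Col4a1, Col4a2, Col13a1, Col18a1 and Col6a3 in the 7 endothelial cell-like sub-clusters, named by leading gene with their cells per library; bars are exact Poisson 95% intervals and an open symbol marks no UMI. Col13a1 is high in the Inhbb-led and Cldn5-led cells (181 and 143 CPM), Col6a3 in the Vwf-led cells (131 CPM) and Col18a1 in the Adam23-led cells (379 CPM). The part of hepatocyte RNA in the Col18a1 values was not tested.

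In cholangiocyte-like cells, the lining of bile ducts, Col18a1, Col27a1 and the type IV genes led. Col18a1 had 65, 63 and 98 UMIs (83.1, 103 and 143 CPM), below Col27a1 in control and above it in the others. Col27a1 had 74, 40 and 41 UMIs (94.6, 65.5 and 59.8 CPM), Col4a5 had 42, 30 and 34 UMIs (53.7, 49.1 and 49.6 CPM), Col4a1 had 38, 18 and 10 UMIs (48.6, 29.5 and 14.6 CPM), Col4a2 had 24, 13 and 8 UMIs (30.7, 21.3 and 11.7 CPM) and Col4a4 had 15, 14 and 10 UMIs (19.2, 22.9 and 14.6 CPM). Col27a1 was in 40.9%, 17.0% and 15.3% of these cells, against 0.372%, 0.719% and 0.410% of T cell-like cells. With each cell thinned to 1000 UMIs the shares were 9.71%, 5.49% and 5.58% against 0.105%, 0.308% and 0.211%. The median depth was 5469, 3047 and 2727 UMIs in the former and 2436, 2201 and 2011 in the latter. Col1a1, Col1a2 and Col3a1 had 0 UMIs in these cells in all 3 libraries, which allows up to 3.84, 4.91 and 4.38 CPM. Against T cell-like cells, 5 of 5 members in control, 3 of 4 in high-fat diet and 2 of 4 in CCl4 passed 2-fold, with backgrounds of 22.3%, 20.4% and 18.7%. Members such as Col4a5 (42 UMIs in cholangiocyte-like and 1 in T cell-like cells of control) reached 20 UMIs only through the cholangiocyte-like cells. For these the pass followed from the filter.

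Col4a5 was nearly level across the libraries, at 0.915 of control in high-fat diet (0.553 to 1.5) and 0.924 in CCl4 (0.570 to 1.49), while Col4a1 stood at 0.607 (0.326 to 1.09) and 0.300 (0.133 to 0.614). In high-fat diet 0 of 6 members passed 2-fold in either direction, with 7.30% of all genes higher and 10.8% lower. In CCl4 0 of 6 were higher and 2 lower, Col4a1 and Col4a2 (0.381, 0.148 to 0.875), with 8.11% and 21.0% of all genes. Both genes reached the minimum of 20 UMIs mainly through control, so this count is not a like comparison with all genes. Per 100 UMIs of the 10 cholangiocyte markers, members other than Col18a1 had 1.32, 1.10 and 1.28 UMIs with overlapping intervals.

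Col18a1, whose C-terminal end gives endostatin, was the main collagen RNA of hepatocyte-like cells. It had 3717, 3057 and 5393 UMIs there (135, 178 and 263 CPM) and was in 35.1%, 33.7% and 43.5% of cells. T cell-like cells held it in 6.61%, 23.4% and 19.6% of cells, at 28.8, 114 and 106 CPM, so that hepatocyte-like cells stood at 4.68 (3.77 to 5.90), 1.56 (1.43 to 1.71) and 2.48 times (2.25 to 2.74) the background. The median depths were 3803, 2292 and 2287 UMIs in hepatocyte-like and 2436, 2201 and 2011 UMIs in T cell-like cells. Thinned to 1000 UMIs per cell, the shares were 9.84%, 15.2% and 20.6% of hepatocyte-like and 2.67%, 10.8% and 9.95% of T cell-like cells, so that control was then the lowest, as in CPM. High-fat diet stood at 1.32 and CCl4 at 1.95 (1.87 to 2.03) of control in hepatocyte-like cells, both under the fold of 2. Slc19a1, a gene on the opposite strand, overlaps Col18a1 and had 528 UMIs in all.

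The Col18a1 of T cell-like cells ran beside their hepatocyte RNA. Per 100000 UMIs of the 10 hepatocyte markers, Col18a1 had 159, 122 and 176 UMIs in hepatocyte-like cells, 125, 116 and 89.1 in T cell-like cells, 101, 114 and 87.2 in B cell-like cells, and 109, 110 and 86.4 in natural killer (NK) cell-like cells. Immune classes lay close to each other in each library, and at or below hepatocyte-like cells. The source of the Col18a1 UMIs of the immune classes was not tested. Smooth muscle cell-like cells of control, at 3802, and cholangiocyte-like cells of control, at 543, lay above this range, while smooth muscle cell-like cells of the other libraries were at 162 and 182 on 3 and 8 UMIs. Endothelial cell-like cells were at 319, 125 and 229 and cholangiocyte-like cells of the other libraries at 171 and 163. In high-fat diet the CPM of Col18a1 in endothelial cell-like cells (102) and in cholangiocyte-like cells (103) did not exceed that of T cell-like cells (114).

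Hepatocyte-like clusters differed in Col18a1 within a library. In control, a cluster of 1533 cells had 223 CPM and a cluster of 3430 cells, nearly all of control, 49.3 CPM. In CCl4 a cluster of 2833 cells had 373 CPM and a cluster of 4061 cells 130 CPM. In high-fat diet a cluster of 5216 cells had 138 CPM, and clusters of 704 and 612 cells, mostly of this library, had 317 and 225 CPM. The clusters with more Col18a1 were also the deeper ones. Their median depth was 8280 against 3137 UMIs in control and 3355 against 1991 in CCl4. In high-fat diet it was 3974 and 3351.5 against 2200 UMIs. The part of depth in these differences was not tested. Different clusters held the hepatocyte-like cells of each library, so the library values above average over unlike clusters.

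Col4a1 stood apart in control. Hepatocyte-like cells had 542, 26 and 13 UMIs of it (19.7, 1.51 and 0.634 CPM), while Col4a2 had 43, 24 and 9 UMIs (1.56, 1.39 and 0.439 CPM). The ratio of Col4a1 to Col4a2 was 12.6 in control (9.23 to 17.6) and 1.08 (0.598 to 1.97) and 1.44 (0.571 to 3.83) in the others. Endothelial cell-like cells had ratios of 2.03 (1.54 to 2.69), 1.30 (0.955 to 1.77) and 1.76 (0.942 to 3.41), and smooth muscle cell-like cells of control 1.30 (0.907 to 1.87). T cell-like cells of control had 20 and 2 UMIs of the pair, a ratio of 10.0 (2.43 to 88.2), and 6 and 1 UMIs of Col4a1 in the other libraries. Per 100000 hepatocyte-marker UMIs, Col4a1 of control was 23.1 in hepatocyte-like, 30.1 in T cell-like, 24.7 in B cell-like and 40.4 in NK cell-like cells, against 1457 in endothelial cell-like cells. The control values of the first 4 classes ran from 23.1 to 40.4, and the source of their Col4a1 UMIs was not tested. In high-fat diet and CCl4 hepatocyte-like cells were at 1.04 and 0.424.

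**Figure D5:**
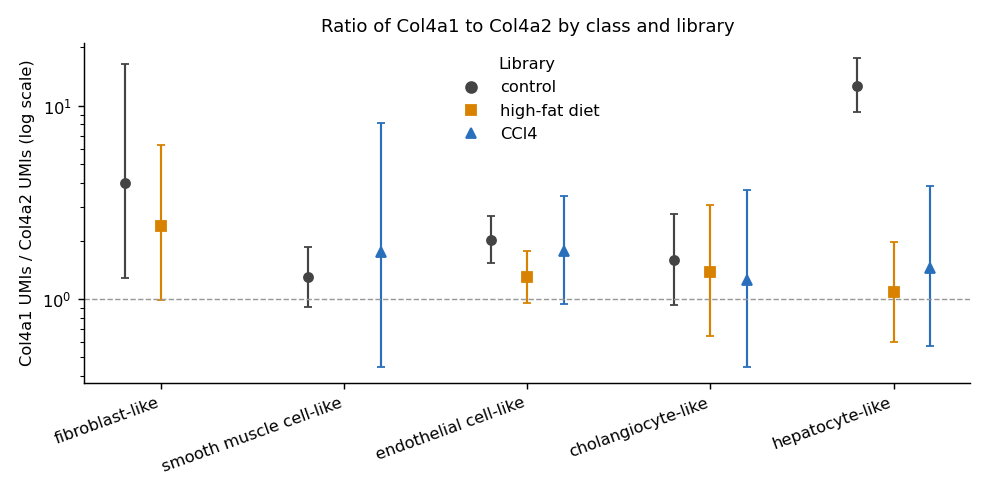
Ratio of Col4a1 to Col4a2 UMIs (log scale) in 5 classes by library, with exact 95% intervals; T cell-like cells are not drawn, the dashed line marks equal counts, and points with 3 or fewer UMIs of either gene are left out (fibroblast-like of CCl4 and smooth muscle cell-like of high-fat diet). Hepatocyte-like cells of control stand at 12.6, above the 1.08 to 1.44 of the other libraries and the 1.30 to 2.03 of endothelial cell-like cells.

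Hepatocyte-like cells also held Col15a1, Col5a3 and Col27a1 at low levels. Col15a1, the other multiplexin, had 199, 62 and 56 UMIs (7.23, 3.60 and 2.73 CPM) and was in 3.79%, 0.971% and 0.781% of cells (0.675%, 0.352% and 0.265% thinned to 1000 UMIs). Col5a3, a fibrillar type V chain, had 100, 68 and 288 UMIs (3.63, 3.95 and 14.1 CPM) and was in 1.94%, 1.05% and 3.86% of cells (0.318%, 0.383% and 1.38% thinned). Col27a1 had 121, 86 and 161 UMIs (4.40, 5.00 and 7.85 CPM). T cell-like cells had 0.347, 2.24 and 5.67 CPM of Col5a3, so CCl4 was highest in both classes, at 2.48 times the background in hepatocyte-like cells (1.63 to 3.93). Col12a1, fibril-associated, had 47, 21 and 26 UMIs, and the membrane-spanning Col25a1 had 18, 3 and 1 UMIs. Type I and III chains had at most 7 UMIs each in the 4961 to 7041 hepatocyte-like cells of a library.

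Against T cell-like cells, 7 of 8 members in control, 0 of 7 in high-fat diet and 4 of 5 in CCl4 passed 2-fold in hepatocyte-like cells, with backgrounds of 20.0%, 2.98% and 7.37%. In control the hepatocyte-like class held 27511253 UMIs, against 2878079 in T cell-like cells. Members such as Col15a1 (199 and 3 UMIs in these classes) reached 20 UMIs only through the hepatocyte-like cells. The counts are therefore not a like comparison with all genes. In high-fat diet the medians were 0.64 for the members and -0.24 for all genes on the log2 scale. Between libraries, high-fat diet had 0 members higher and 3 lower of 9, where 8.61% and 8.55% of all genes were. The 3 were Col4a1 at 0.0767 of control (0.0497 to 0.114), Col25a1 at 0.267 (0.0503 to 0.913) and Col15a1 at 0.498 (0.368 to 0.666). CCl4 had 1 higher and 3 lower of 8, where 11.2% and 9.05% of all genes were. Col5a3 stood at 3.87 times control (3.07 to 4.90), Col15a1 at 0.378 (0.276 to 0.510), Col4a2 at 0.281 (0.120 to 0.584) and Col4a1 at 0.0322 (0.0170 to 0.0555). Col25a1 in high-fat diet, and Col4a1 and Col4a2 in CCl4, reached the minimum of 20 UMIs mainly through control. These library counts are also not a like comparison with all genes. Outside Col18a1, the members of hepatocyte-like cells summed to 0.479 (0.422 to 0.541) and 0.691 (0.624 to 0.765) of control. These sums held 1126, 337 and 580 UMIs in the 3 libraries, of which Col4a1 gave 542, 26 and 13. The ratios therefore lean on Col4a1 and do not describe the members as a set.

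Mesothelial cell-like cells numbered 6, 91 and 11. Col3a1 led in each library with 40, 243 and 73 UMIs (1582, 811 and 2110 CPM), at 4.86 times Col1a1 in high-fat diet (3.57 to 6.73) against 2.00 (1.14 to 3.61) and 2.03 (1.34 to 3.11) in the others. Single cells weighed on these values. In CCl4 1 cell held 119 of the 193 member UMIs, and without it the sum was 2600 CPM. The highest cell for Col3a1 held 48 of its 73 UMIs there and the highest for Col1a1 held 30 of 36, so the CCl4 ratio rests on few cells. A further set of 29 cells (12, 14 and 3), with Lrat and Hhip among its leading genes, carried endothelial as well as fibroblast markers and was kept apart from both classes. It had 2588, 2477 and 3105 CPM of all members, with Col14a1 at 559, 886 and 1846 CPM and Col4a1 at 622, 330 and 252 CPM. Its member sums overlapped across the libraries (2297 to 2905, 2113 to 2885 and 2186 to 4280 CPM).

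The remaining members were rare. Col11a2, a fibrillar gene, had 39 UMIs, 30 of them in control, with 9 in myeloid progenitor-like cells and 6 in T cell-like cells of that library. Col20a1 (fibril-associated, 26 UMIs) and Col23a1 (membrane-spanning, 27 UMIs) were spread over many classes, and Col4a3 had 11 of its 22 UMIs in cholangiocyte-like cells. Col8a1 had 22 UMIs, Col4a6 33 and Col6a5 34, of which 15 were in mesothelial cell-like cells of high-fat diet. Another 11 members had 1 to 19 UMIs: Col2a1, Col6a6, Col7a1, Col8a2, Col9a2, Col9a3, Col10a1, Col17a1, Col19a1, Col22a1 and Col24a1. Col10a1 lies within Nt5dc1 of the opposite strand, which had 2025 UMIs, and its 6 UMIs are uncertain for that reason. Col6a4, Col9a1, Col11a1, Col26a1 and Col28a1 had no UMI, which allows up to 3 of the 118660227 UMIs for each. By role, the 11 fibrillar genes had 3668 UMIs in all, the 6 type IV genes 2152, the 6 beaded-filament genes 552, the 9 fibril-associated genes 739, the 4 membrane-spanning genes 286 and the 3 short-chain genes 35, against 17457 for the pair of multiplexins.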

How the data were processed

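Liver cells of 3 libraries (control, high-fat diet and CCl4) were analysed from the deposited UMI counts per gene and cell, which the authors made with Cell Ranger (7.2.0 in the matrix header). The paper names mm10 and the submitters' processing notes GRCm39. The count files hold no coordinates, so positions come from GENCODE M21 on GRCm38.

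The analysis used 36945 of 36990 barcodes. All reached the minimum of 500 UMIs, and 39 were left out for a mitochondrial share above 30%. Cells were clustered without the collagen genes with scanpy 1.11.5 (2000 variable genes, 30 components, resolution 1.0; sub-clusters at 0.4) into 47 clusters, which were named from fixed marker lists. The Scrublet doublet caller marked 1 to 3 cells per library, under 0.5%, so it did not work. The 6 cells it marked were left out, and doublets were not removed otherwise. CPM is UMIs per 1000000 UMIs of a class in a library, and 3′ UMIs were not scaled by gene length. With 1 library per condition there was no test. Intervals are exact at 95% (Poisson for CPM, Clopper-Pearson for shares, conditional binomial for ratios), and a count of 0 was set to a floor of 3 UMIs. A gene was counted as higher or lower at 2-fold, with at least 20 UMIs in both groups together and at least 60000 UMIs in each class. Where a member reached that minimum mainly through 1 group, between classes or libraries, the count is not a like comparison with all genes.

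Members with at least 20 UMIs were named with their classes. The 10 highest in fibroblast-like cells got full values, as did, in other classes, members at 2-fold over T cell-like cells with 10 UMIs in 2 or more libraries. The members, lists and alternatives were chosen with earlier results of these data known. The steps were tested on simulated data. For the class sums 13 alternatives were tried. Member counts were repeated with at least 50 UMIs and with folds of 1.5 and 3, and shares of cells with each cell thinned to 1000 UMIs.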

Additional observations from a re-analysis of the deposited data

Results flagged for a closer look

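Some values stood out by their direction or place. Col1a1 of high-fat diet was 2.73 times control in smooth muscle cell-like cells (9 and 29 UMIs, in 10 and 53 cells) and 0.184 of control in fibroblast-like cells. In the smooth muscle cell-like cells 1 high-fat diet cell held 5 of the 9 UMIs. The CPM intervals of the 2 libraries overlapped there only at their ends (132 to 548 and 71.0 to 152 CPM), which does not give the interval of their ratio. Col18a1 of CCl4 was 4.70 times control in endothelial cell-like cells and 0.410 of control in smooth muscle cell-like cells (8 and 112 UMIs). Neither difference between classes was tested. The 10 hepatocyte markers of endothelial cell-like cells stood at 17419 CPM in control and 114146 CPM in CCl4. Col18a1 of T cell-like cells stood at 28.8 and 106 CPM in the same libraries. Per hepatocyte-marker UMI, endothelial Col18a1 was lower in CCl4 than in control, as given above. The part of hepatocyte RNA in the 4.70-fold value was not tested. Outside the classes compared above, Col27a1 had 11.9 CPM in B cell-like cells of control, and Col5a1 had 6.15 CPM in myeloid progenitor-like cells of control (21 UMIs in 11 of 381 cells).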

How the results depend on the processing

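The direction of a ratio changed in these cases: CCl4 to high-fat diet in fibroblast-like cells without high doublet scores (0.946 instead of 1.31), and CCl4 to control (1.74 instead of 0.859) and to high-fat diet (1.99 instead of 0.982) in cholangiocyte-like cells with each library clustered on its own, the latter also at 1.04 with the most abundant genes left out. No paired analysis was possible because each condition had 1 library, and for the same reason no replicate could be left out. Values of all members in CPM, or as ratios where named, moved as follows. Without the 8% of cells with the highest doublet scores, fibroblast-like cells had 18205 (control) and 4620.4 (high-fat diet), smooth muscle cell-like cells of control 2319, and endothelial cell-like cells 891 and 572. The fibroblast-like ratios were then 0.254 (high-fat diet to control), 0.240 (CCl4 to control) and 0.946 (CCl4 to high-fat diet), and the endothelial ratio of CCl4 to control 0.481. At resolution 2.0, fibroblast-like cells had 18146 and 4907 and endothelial cell-like cells of control 655. With at least 2000 UMIs per cell, fibroblast-like cells had 18146 and 5055, and hepatocyte-like cells of CCl4 305, at a ratio to control of 1.72. With mitochondrial and the 20 most abundant genes left out of the total, fibroblast-like cells had 15499 and 4928, smooth muscle cell-like cells of control 2314, endothelial cell-like cells 581 (high-fat diet) and 547 (CCl4, ratio to control 0.689), cholangiocyte-like cells 375 and 391, and hepatocyte-like cells 236, 270.4 and 417 (CCl4 ratios 1.77 to control and 1.54 to high-fat diet). Without the cell with most member UMIs, fibroblast-like cells had 13101 and 3853 and smooth muscle cell-like cells of high-fat diet 992, at a ratio of 0.501. With each library clustered on its own, endothelial cell-like cells of control had 1237 (ratios 0.419 and 0.314), cholangiocyte-like cells of CCl4 639.7 (ratios 1.74 to control and 1.99 to high-fat diet), and hepatocyte-like cells 198 and 246 (ratios 1.24, 1.48 and 1.19); no fibroblast-like value could be had in control or CCl4. With at most 10% mitochondrial UMIs, hepatocyte-like cells had 170.4, 190.3 and 260.3 (CCl4 ratios 1.53 and 1.37). 3 settings were chosen after seeing the data. Sub-clusters at resolution 1.0 gave fibroblast-like cells of control 15078. Mesothelial cell-like cells counted with fibroblast-like cells gave 11476 and 2815 (ratios 0.245, and 1.98 for CCl4 to high-fat diet). The endothelial cells with fibroblast markers kept in gave 1009 and 623 in endothelial cell-like cells, and a CCl4 ratio of 0.475. The cause was not tested in any of these. The ratio of high-fat diet to control in fibroblast-like cells was below 1 in every setting that gave one, while CCl4 to high-fat diet moved between 0.946 and 1.98. Resolution 0.6, more variable genes, and collagen genes among the variable genes moved none of these values. Counts of members at 2-fold changed as follows. With at least 50 UMIs, which leaves fewer members tested, those higher than in T cell-like cells numbered 6 instead of 10 (fibroblast-like, control), 4 instead of 8 (fibroblast-like, high-fat diet), 5 instead of 9 (smooth muscle cell-like, control), 3 instead of 5 and 1 instead of 3 (endothelial cell-like, high-fat diet and CCl4), and 3, 1 and 0 instead of 5, 3 and 2 (cholangiocyte-like). In high-fat diet against control 5 instead of 9 were lower in fibroblast-like cells, and in CCl4 against control 0 instead of 2 in cholangiocyte-like cells. At a fold of 3, 1 instead of 3 were higher in endothelial cell-like cells of CCl4 and 4 instead of 7 and 2 instead of 4 in hepatocyte-like cells of control and CCl4 (all against T cell-like cells), and 1 instead of 2 were lower than in control in endothelial cell-like cells of high-fat diet and in cholangiocyte-like cells of CCl4. At a fold of 1.5, 4 instead of 0 were higher than in T cell-like cells in hepatocyte-like cells of high-fat diet. Against control, 1 instead of 0 was then higher in endothelial cell-like cells of high-fat diet and in cholangiocyte-like cells of CCl4, 1 instead of 0 was lower in cholangiocyte-like cells of high-fat diet, and 3 instead of 1 were higher in hepatocyte-like cells of CCl4. Thinning to 1000 UMIs moved 14 of the shares of cells with a UMI and left 4 within their intervals. Depth limits the fibroblast-like cells of CCl4 (4 cells, 9465 UMIs) most.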

Other observations

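Collagen UMIs were found in some immune classes and in cells left unnamed, as values with no test. Col27a1 had 11.9, 8.61 and 3.55 CPM in B cell-like cells and 11.2, 8.02 and 17.7 CPM in dendritic cell-like cells of control, high-fat diet and CCl4. Cells left unnamed held more of some members. Col27a1 had 3.79, 51.1 and 31.8 CPM there (14, 28 and 58 UMIs), and Col5a3 had 3.25, 12.8 and 48.3 CPM (12, 7 and 88 UMIs). The unnamed cells differed in makeup between libraries. A cluster with Gzmk and Cd6 among its leading genes held 660, 54 and 49 cells. One with Cd160 and Ncr1 held 531, 2 and 2, and one led by Egfros held 7, 115 and 661. The library values of unnamed cells are therefore not of like cells.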
